A study of Mus musculus with 6 samples.

Results

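The genes described here encode the proteins that switch RAS on and off between a receptor and the RAF kinases. They are 10 genes of the 56923 listed in the count table, matched by symbol, and all 10 passed the filter on low counts and were among the 17212 genes tested. *Ptpn11*, *Grb2*, *Gab1*, *Sos1*, and *Sos2* act toward RAS activation, *Nf1*, *Rasa1*, *Rasa2*, and *Rasa3* encode RAS GTPase activators, and *Cbl* encodes a ubiquitin ligase that marks activated receptors for removal and is given with the inhibitors but apart. RNA was sequenced from PBS-perfused left ventricles (LVs) of 3 wild-type (WT) mice and 3 heterozygous *Lztr1* R409C/+ mice, which the labels call mutant and the plots call Mut, and each mouse, 12 weeks old, gave 1 library. The mutation was introduced into the germline with CRISPR/Cas9, so that every cell of the mouse carries it, and the line was backcrossed to C57BL/6J mice. The labels name the tissue heart and give no sex for these mice, and the study's methods state that males were used for its phenotype comparisons. The samples measure whether the mutation is accompanied by a change in the transcripts of these regulators.

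RAS is active when bound to GTP. After a growth factor binds its receptor, the adaptor GRB2 brings the exchange factors SOS1 and SOS2 to the membrane, where they load RAS with GTP, and the docking protein GAB1 recruits the phosphatase SHP2, the product of *Ptpn11*, which is needed for full RAS activation. Neurofibromin, the product of *Nf1*, and the RASA proteins accelerate the hydrolysis of GTP and so return RAS to its inactive state. Germline mutations in *PTPN11*, *SOS1*, *SOS2*, *CBL*, *RASA2*, and *NF1* have been described in Noonan syndrome or related RASopathies, in which the heart is often affected. LZTR1 acts at another level, as the substrate adaptor of a ubiquitin ligase that degrades RAS proteins.

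Total counts ranged from 66130887 to 72641124 per mouse. Levels are given as CPM, the counts scaled to the size of each library. The limit of 3 counts lay at 0.0317 to 0.0541 CPM depending on the mouse, for counting error alone, and every member was far above it. A pair of libraries stood apart in their share of mitochondrially encoded counts, which was 13.8% in WT replicate 3 and 45.4% in mutant replicate 1 against 29.7% to 37.3% in the other 4 mice. Library sizes were scaled by TMM, which adjusts each mouse for such differences in composition. Cardiomyocyte markers were abundant, with sums of 7 genes between 21816 and 33802 CPM, and the atrial genes *Myl7* and *Sln* reached at most 19 and 4 counts in any mouse, while a further atrial gene, *Myl4*, had 23 to 54. *Lztr1* itself, whose transcript carries the substitution and whose level therefore does not check the labels, was at 24.2, 24.2, and 22.2 CPM in WT and 23.9, 27.9, and 25.3 CPM in the mutant mice. In bulk tissue, fewer cells of a type and less RNA per cell cannot be told apart.

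No member passed the threshold of 0.05 after Benjamini-Hochberg adjustment, over all genes tested, of edgeR's quasi-likelihood test. The adjusted p-values of the members lay between 0.591 for *Gab1* and 0.954 for *Rasa2*. In the same test, 0.0407% of all genes tested passed. At a threshold of 0.1 the count of members was also 0, beside 0.093% of all genes tested. At an unadjusted p under 0.05 the count of members was also 0, where 8.63% of all genes tested lay under this value, and edgeR's exact test and DESeq2's Wald test likewise gave 0 members at either threshold. Over all genes tested, 0.796% and 0.871% passed after adjustment in these tests, and 8.96% and 9.2% lay under the unadjusted threshold. The fitted log2 fold changes, mutant over WT, were below 0 for 8 of the 10 members and above 0 for *Grb2* and *Rasa3*, beside 48.6% of all genes tested that were below 0. The median over the members was -0.14, and it was 0.012 over all genes tested. By role, the median was -0.14 over the 5 activators, of which 4 were below 0, and -0.077 over the 4 GTPase activators, of which 3 were below 0, and *Cbl* was at -0.15. Single members lay between -0.34 for *Gab1* and 0.16 for *Rasa3*. The tally of the members was not stable. It was 7 of 10 below 0, with a median of -0.084, without WT replicate 3, and 6 of 10, with a median of -0.085, without mutant replicate 3. After a correction of each mouse for the trend of its counts on gene length, 6 of 10 members were below 0, with a median of -0.071, and *Nf1* was then the only 1 of their 4 GTPase activator genes below 0.

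*Gab1* (ENSMUSG00000031714.10, chromosome 8 of GRCm39, 81491061 to 81607279), the docking protein gene, had the lowest fold change of the members. The WT mice, in the order of replicates 1, 2, and 3 used throughout, had 71.2, 75.0, and 61.1 CPM of *Gab1*, and the mutant mice had 47.7, 55.8, and 60.7 CPM. The highest mutant mouse lay just under the lowest WT mouse, so that the genotypes touched without overlap. The means were 69.1 ± 7.15 CPM (SD, n = 3) in WT and 54.7 ± 6.58 CPM (SD, n = 3) in the mutant mice. The log2 fold change was -0.34 (standard error 0.16, 95% interval -0.68 to 0.0092, raw p, before adjustment, 0.0555, edgeR adjusted p 0.591). Without WT replicate 3, one of the mice that stood apart, it was -0.42, and without mutant replicate 1, the other, it was -0.25. The raw edgeR p of *Gab1* was 0.141, 0.181, and 0.0276 without WT replicates 1, 2, and 3, 0.139, 0.0904, and 0.0305 without mutant replicates 1, 2, and 3, and 0.041 without both mice that stood apart, and the adjusted p lay between 0.555 and 0.976 over all alternatives.

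*Ptpn11* (ENSMUSG00000043733.15, chromosome 5, 121268596 to 121329496), the gene of the phosphatase that GAB1 recruits, had 203.4, 206.1, and 267.1 CPM in WT and 214.8, 200.5, and 198.9 CPM in the mutant mice. A single mouse, WT replicate 3, was high, and the other 5 lay within a narrow range in which the genotypes overlapped. The log2 fold change was -0.14 (standard error 0.16, 95% interval -0.50 to 0.22, edgeR adjusted p 0.852), and it was -0.0025 without WT replicate 3. *Grb2* (ENSMUSG00000059923.14, chromosome 11, 115534871 to 115600161) encodes the adaptor that carries SOS to receptors. It had 55.6, 50.7, and 42.4 CPM in WT and 43.6, 52.1, and 70.0 CPM in the mutant mice. Mutant replicates 1 and 2 lay inside the WT range, and mutant replicate 3 lay above every other mouse. The log2 fold change of *Grb2* was 0.16 (standard error 0.19, 95% interval -0.26 to 0.57, edgeR adjusted p 0.859), and without mutant replicate 3 it turned to -0.050.

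**Figure D1:**
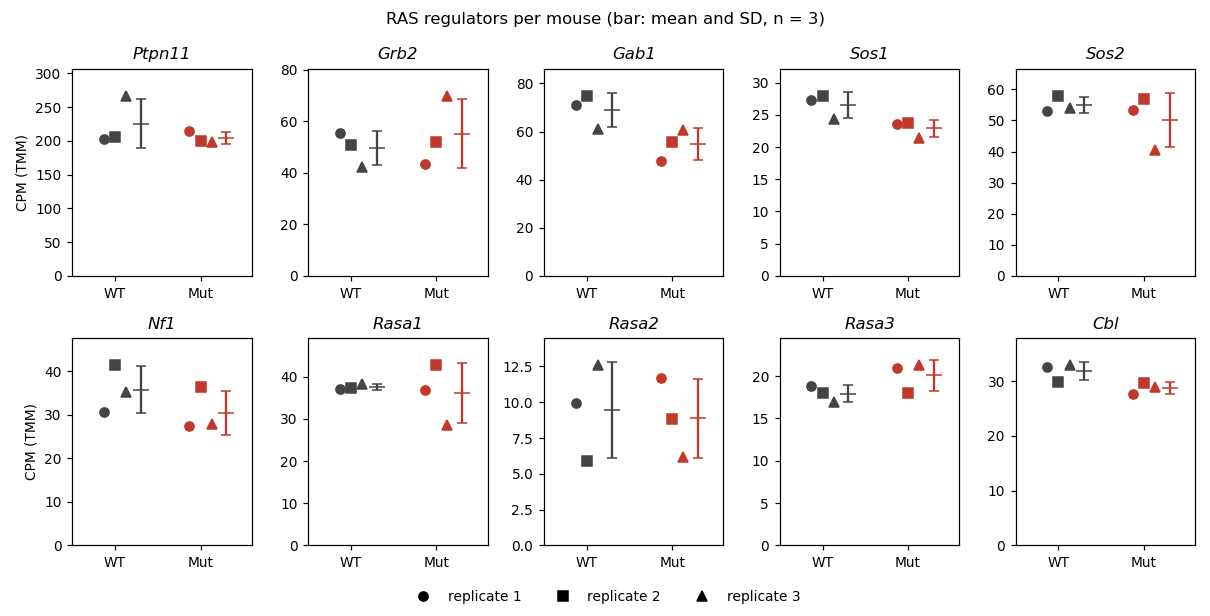
CPM with TMM library sizes (y axis, from 0) of the 10 genes in the 3 WT and 3 *Lztr1* R409C/+ (Mut) mice, with 1 marker per mouse, its shape giving the replicate number, and the mean with SD at the right of each group. The genotypes do not overlap for *Gab1*, *Sos1*, and *Cbl*, and overlap for the other 7 genes.

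*Sos1* (ENSMUSG00000024241.8, chromosome 17, 80701180 to 80787897) and *Sos2* (ENSMUSG00000034801.14, chromosome 12, 69630098 to 69729162) encode the exchange factors that GRB2 recruits. *Sos1* was at 27.3, 28.0, and 24.3 CPM in WT and at 23.6, 23.7, and 21.4 CPM in the mutant mice. Every mutant mouse lay below every WT mouse, by a small margin between WT replicate 3 and mutant replicate 2. On average WT mice had 26.5 ± 1.98 and mutant mice 22.9 ± 1.31 CPM (SD, n = 3 per genotype). The log2 fold change was -0.21 (standard error 0.15, 95% interval -0.54 to 0.11, raw p 0.182, edgeR adjusted p 0.739). It kept its sign with each mouse left out, between -0.28 and -0.17, and was -0.14 after the gene length correction. *Sos2* was at 53.0, 58.0, and 54.0 CPM in WT and at 53.3, 56.9, and 40.5 CPM in the mutant mice. Of the mutant mice, 2 lay inside the WT range and mutant replicate 3 below it. The log2 fold change of *Sos2* was -0.13 (standard error 0.16, 95% interval -0.49 to 0.23, edgeR adjusted p 0.861), without mutant replicate 3 it was 0.0027, and after the gene length correction it was -0.085.

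Among the inhibitors, *Nf1* (ENSMUSG00000020716.17, chromosome 11, 79230500 to 79472438), the neurofibromin gene, was measured at 30.8, 41.5, and 35.2 CPM in WT and at 27.4, 36.4, and 27.8 CPM in the mutant mice. The genotypes overlapped through mutant replicate 2, which lay above 2 of the WT mice. The means were 35.8 ± 5.37 and 30.5 ± 5.07 CPM (SD, n = 3 per genotype), and the log2 fold change was -0.23 (standard error 0.18, 95% interval -0.61 to 0.15, raw p 0.212, edgeR adjusted p 0.757). It was -0.38 without mutant replicate 2 and -0.12 without WT replicate 2. *Nf1* has the longest exonic sequence of the members, 18780 bases. After the gene length correction, the log2 fold change of *Nf1* was -0.12.

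The fitted values of the RASA genes lay on both sides of 0, and none passed the test. *Rasa1* (ENSMUSG00000021549.15, chromosome 13, 85358526 to 85437670), the gene of p120 RasGAP, was nearly constant in WT mice, at 37.0, 37.3, and 38.3 CPM, and ranged wider in the mutant mice, at 36.9, 42.8, and 28.6 CPM. Its log2 fold change was -0.057 (standard error 0.17, 95% interval -0.43 to 0.31, edgeR adjusted p 0.953), with mutant mice on either side of the WT range, and it was 0.086 without mutant replicate 3. *Rasa1* shares 1988 exonic bases with *Ccnh* on the opposite strand, and the sources used here do not say whether the counting used strand, so that reads of these bases cannot be told apart. *Gab1*, *Sos2*, *Rasa2*, and *Cbl* share shorter stretches, from 71 to 315 bases, with noncoding genes on the opposite strand. *Rasa2* (ENSMUSG00000032413.13, chromosome 9, 96421353 to 96513674), whose product is a GTPase activator of the GAP1 family, was the lowest and most variable member. It was at 9.91, 5.92, and 12.6 CPM in WT and at 11.7, 8.83, and 6.15 CPM in the mutant mice, with coefficients of variation of 35.5% and 31.1%. The genotypes covered nearly the same range, and the 95% interval of the log2 fold change, -0.72 to 0.53 around -0.096, was the widest of the members (standard error 0.29, edgeR adjusted p 0.954). Without WT replicate 3 the log2 fold change of *Rasa2* was 0.16. *Rasa3* (ENSMUSG00000031453.17, chromosome 8, 13616935 to 13727663) encodes another GTPase activator of this family, which also acts on RAP1. It was at 18.9, 18.0, and 16.9 CPM in WT and at 20.9, 18.0, and 21.3 CPM in the mutant mice. Mutant replicates 1 and 3 lay above every WT mouse, and mutant replicate 2 was level with the middle WT mouse, so that the genotypes overlapped. The log2 fold change of *Rasa3* was 0.16 (standard error 0.16, 95% interval -0.18 to 0.50, edgeR adjusted p 0.814), and it stayed between 0.12 and 0.23 with each mouse left out.

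*Cbl* (ENSMUSG00000034342.10, chromosome 9, 44054273 to 44145562), the ubiquitin ligase gene, was at 32.6, 29.9, and 32.9 CPM in WT and at 27.6, 29.7, and 28.9 CPM in the mutant mice. The genotypes did not overlap, but WT replicate 2 and mutant replicate 2 were nearly level. The means of 31.8 ± 1.68 and 28.7 ± 1.02 CPM (SD, n = 3 in each group) gave a log2 fold change of -0.15 (standard error 0.14, 95% interval -0.46 to 0.17, raw p 0.326, edgeR adjusted p 0.817), and it was -0.057 after the gene length correction. *Gab1*, *Sos1*, and *Cbl* were thus the 3 members without overlap, all lower in the mutant mice, beside 7.23% of all genes tested that were lower without overlap, and 0 members were higher without overlap, beside 8.3%. This separation depended on the scaling. With library size only, *Sos1* alone was lower without overlap, beside 4.75% of all genes tested, and 0 members were higher, beside 3.62%. With upper quartile scaling, 0 members were lower without overlap, beside 5.41% of all genes tested, and 0 were higher, beside 9.68%. With DESeq2's size factors, or after removal of mitochondrially encoded genes, the members without overlap were the same 3, all lower, beside 7.63% and 7.21% of all genes tested.

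**Figure D2:**
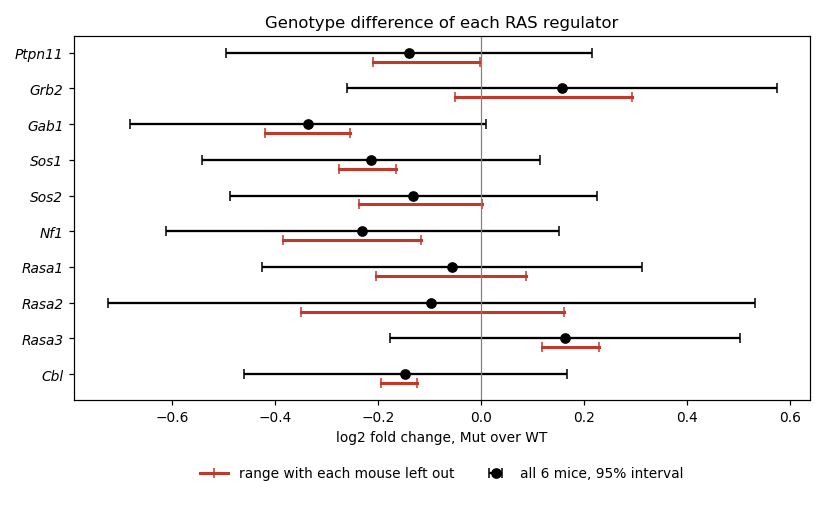
Log2 fold change of *Lztr1* R409C/+ (Mut) over WT mice (x axis) of the 10 genes (y axis), with the 95% interval from edgeR's quasi-likelihood fit in black and, in red, the range over fits to 5 of the 6 mice. Every 95% interval includes 0, and the red ranges of *Grb2*, *Sos2*, *Rasa1*, and *Rasa2* cross 0.

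No mouse was high or low across all members. WT replicate 2 had the highest CPM of *Gab1*, *Sos1*, *Sos2*, and *Nf1* and the lowest of *Rasa2*, and WT replicate 3 had the highest of *Ptpn11*, *Rasa2*, and *Cbl* and the lowest of *Grb2* and *Rasa3*. Mutant replicate 3 had the lowest CPM of *Ptpn11*, *Sos1*, *Sos2*, and *Rasa1* and the highest of *Grb2* and *Rasa3*, and mutant replicate 1 had the lowest of *Gab1*, *Nf1*, and *Cbl*. Likeness between members was measured as the mean absolute difference, over the 6 mice, of centered log2 CPM. The closest pair by this measure was *Sos2* and *Rasa1*, an exchange factor and a GTPase activator, at 0.046. *Sos1* and *Cbl* were nearest to each other at 0.10, and *Ptpn11* lay nearest to *Cbl* at 0.11. *Gab1* was nearest to *Sos1* at 0.13 and *Nf1* to *Sos2* at 0.13. The mean absolute value of a gene's own centered log2 CPM was 0.079 for *Cbl*, 0.11 for *Sos1* and *Ptpn11*, and 0.12 for *Sos2* and *Rasa1*. Among members and their nearest member, only *Sos2* and *Rasa1* differed by less than this spread of both genes. *Rasa2* had no close neighbor, with 0.31 to the nearest member, *Ptpn11*.

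Levels were compared between genes as CPM per kb of exons. *Ptpn11* was by far the most abundant member in WT LVs, at 28.7 ± 4.59 CPM per kb (SD, n = 3), a level above that of 96.3% of the genes tested. *Gab1* followed at 10.02 ± 1.04 and *Grb2* at 9.15 ± 1.23 CPM per kb (SD, n = 3 in each), and their WT ranges overlapped. *Sos2*, at 5.69 ± 0.274 CPM per kb (SD, n = 3), stood apart from its neighbors in both genotypes. A close group came next, with *Rasa1* at 2.72, *Rasa3* at 2.60, *Cbl* at 2.21, *Sos1* at 2.15, and *Nf1* at 1.91 CPM per kb. Within this group, the WT ranges of *Rasa1* and *Rasa3*, of *Cbl* and *Sos1*, and of *Sos1* and *Nf1* overlapped, and those of *Rasa3* and *Cbl* did not. *Rasa2* was lowest, at 0.567 ± 0.201 CPM per kb (SD, n = 3), a level above that of 33.3% of the genes tested, and with the length of its longest transcript at 1.44 CPM per kb, above 43.8% of them. The adaptor, docking protein, and phosphatase genes among the members were each higher per kb than the exchange factor and GTPase activator genes among them. In *Lztr1* R409C/+ mice, *Grb2* stood above *Gab1* and *Rasa3* above *Rasa1*, each with overlapping ranges, and the other positions were as in WT. With the length of the longest transcript in place of the union of exons, *Grb2* moved above *Gab1*, at 16.5 against 11.1 CPM per kb in WT, and *Cbl* moved below *Sos1* and *Nf1*, at 2.75 against 2.97 for each of them.

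**Figure D3:**
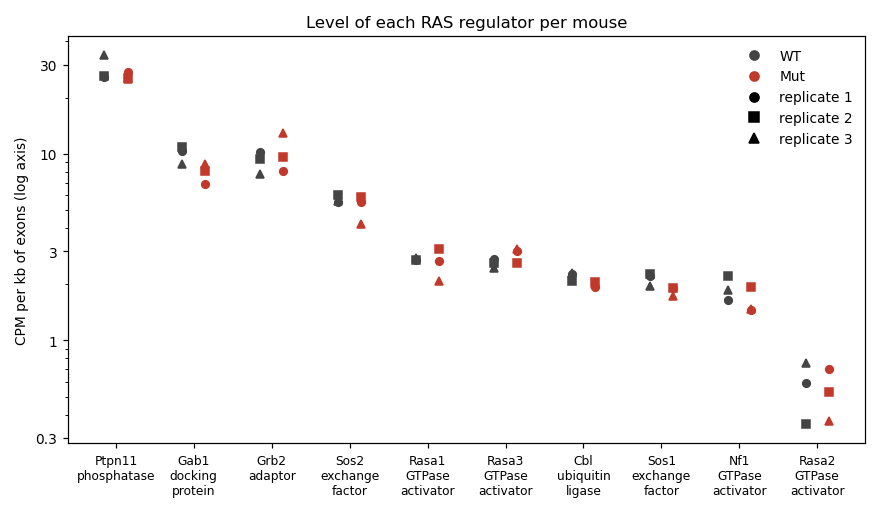
CPM per kb of exons (y axis, log scale) of each gene, ordered by its mean in WT mice, with 1 marker per mouse in WT (grey) and *Lztr1* R409C/+ (Mut, red) mice. *Ptpn11* lies highest, at a WT mean of 28.7, and *Rasa2* lowest, at 0.567.

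Ratios between members within a mouse do not depend on the scaling of library size. The gene length correction can change them, since it moves genes of different length by different amounts. The ratio of *Sos1* to *Sos2* counts was 0.516, 0.482, and 0.450 in WT and 0.443, 0.417, and 0.528 in the mutant mice. The mutant mice lay on either side of the WT range, and the difference of the means was within their spread (exact permutation test, two-sided, p = 0.7). With 3 mice per genotype, this test can reach 0.1 at the lowest. The ratio of *Nf1* to *Sos1* counts, a GTPase activator over an exchange factor, was 1.13, 1.48, and 1.45 in WT and 1.16, 1.53, and 1.30 in the mutant mice. The means of 1.35 ± 0.197 and 1.33 ± 0.188 (SD, n = 3 in each group) were close (two-sided exact permutation test, p = 1.0). When the 4 GTPase activators and the 2 exchange factors were each summed as CPM per kb, their ratio was 0.993, 0.952, and 1.04 in WT and 1.06, 1.05, and 1.18 in the mutant mice. Every mutant mouse lay above every WT mouse in this ratio, with mutant replicate 2 just above WT replicate 3. The separation rested on how the genes were weighted. With the lengths of the longest transcripts, WT mice were at 1.10 ± 0.0656 and mutant mice at 1.21 ± 0.0763 (SD, n = 3 per genotype), and with summed counts 1.24 ± 0.0684 and 1.31 ± 0.0473 (SD, n = 3 in each group), and in both the genotypes overlapped.

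**Figure D4:**
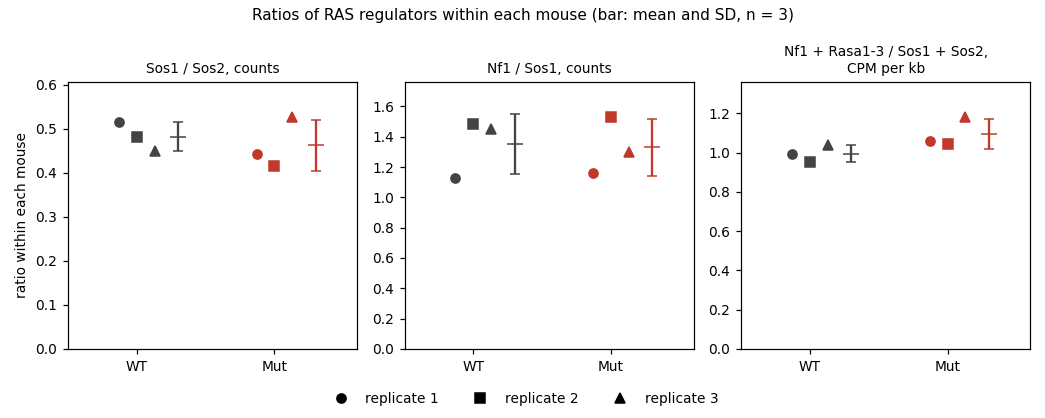
Ratios within each mouse (y axis, from 0) of *Sos1* to *Sos2* counts, of *Nf1* to *Sos1* counts, and of the summed CPM per kb of *Nf1*, *Rasa1*, *Rasa2*, and *Rasa3* to that of *Sos1* and *Sos2*, with 1 marker per mouse and the mean with SD. The genotypes overlap in the count ratios, and in the summed ratio the mutant mice lie between 1.05 and 1.18 above WT mice between 0.952 and 1.04.

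To place the members among their relatives, 32 further genes of the same functions were read from the same fit, of which 30 were tested. Of these, 17 had a fitted log2 fold change above 0 and 13 below 0, with a median of 0.057, and 0 passed the 0.05 threshold of edgeR's quasi-likelihood test after adjustment. At an unadjusted p under 0.05, 3 were higher and 0 lower, beside 5.77% of all genes tested that were higher and 2.86% that were lower at this value. A count of 4 were higher without overlap, the 3 at this value and *Grap2*, another adaptor gene, beside 8.3% of all genes tested. The 3 were *Rasgrp4*, an exchange factor gene known from mast cells and other myeloid cells, *Grap*, which encodes a GRB2-like adaptor, and *Dok2*, which encodes an adaptor of hematopoietic cells that recruits p120 RasGAP. *Rasgrp4* was at 1.01, 0.886, and 1.64 CPM in WT and 2.11, 1.79, and 3.78 CPM in the mutant mice, without overlap (log2 fold change 1.11, standard error 0.37, raw p 0.0112, edgeR adjusted p 0.450). *Grap* was at 3.81, 5.05, and 5.31 CPM in WT and 6.39, 8.49, and 7.71 CPM in the mutant mice, also without overlap (log2 fold change 0.67, standard error 0.22, raw p 0.00905, edgeR adjusted p 0.411). *Dok2* was at 1.66, 0.979, and 1.91 CPM in WT and 2.13, 2.45, and 2.81 CPM in the mutant mice, without overlap (log2 fold change 0.70, standard error 0.32, raw p 0.0494, edgeR adjusted p 0.574). *Rasgrp4* and *Dok2* were low in WT LVs, at 0.185 and 0.503 CPM per kb, and *Grap* was at 2.58 CPM per kb, near *Rasa3*. The raw p of *Rasgrp4* rose above 0.05 without mutant replicate 3, where its log2 fold change was 0.72. That of *Dok2* rose above 0.05 without any 1 mouse other than WT replicate 3, and its log2 fold change was 0.46 without WT replicate 2. With library size only, the raw edgeR p was 0.159 for *Grap*, 0.234 for *Dok2*, and 0.033 for *Rasgrp4*. For *Dok2* it was also 0.0509 with DESeq2's size factors and 0.0798 after the gene length correction. The summed CPM of 6 leukocyte markers, of which 6 had a fitted fold change above 0 and 0 passed the adjusted threshold, lay between 70.6 and 75.0 in WT and between 120.1 and 138.7 in the mutant mice. The sum of 3 T and B cell markers, of which 3 were above 0 and 0 passed, was far lower and lay between 0.391 and 0.761 CPM in WT and between 1.145 and 1.73 CPM in the mutant mice. The part of either sum in the values of these 3 genes was not tested. Of the 7 cardiomyocyte markers, 2 were above 0 and 5 below. Their sums overlapped between the genotypes, with 28797 to 33802 CPM in WT and 21816 to 32776 CPM in the mutant mice. All 3 erythroid markers were above 0, and their sums overlapped, with 346 to 869 CPM in WT and 613 to 1578 CPM in the mutant mice. The sums of fibroblast, endothelial, and pericyte and smooth muscle markers overlapped too.

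**Figure D5:**
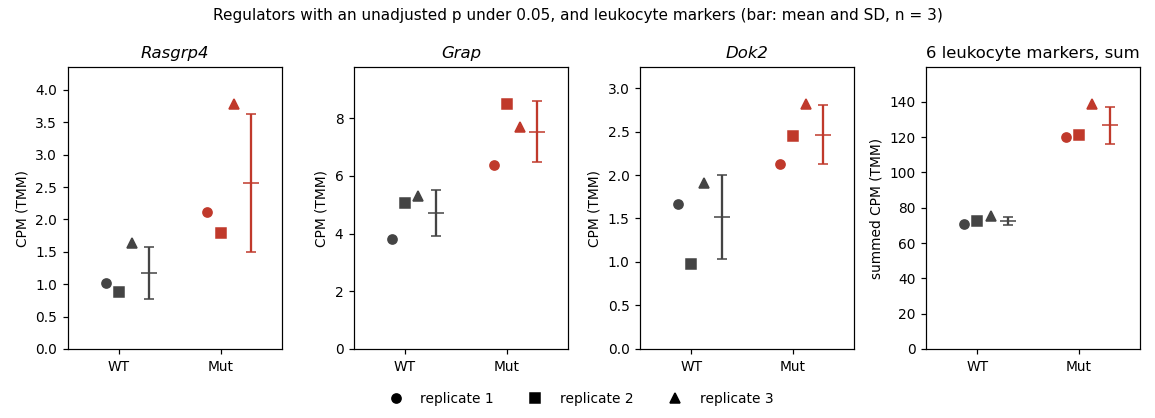
CPM (y axes, from 0) of *Rasgrp4*, *Grap*, and *Dok2*, and at the right the summed CPM of 6 leukocyte markers, in each WT and *Lztr1* R409C/+ (Mut) mouse, with the mean and SD. The 3 genes were picked from 30 tested for an unadjusted edgeR p under 0.05, so their separation is not a further result. In each panel every mutant mouse lies above every WT mouse, with sums of 120.1 to 138.7 against 70.6 to 75.0 CPM for the markers.

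By function, the other exchange factor genes were 3 above and 2 below 0 of 5 tested, with *Rasgrf2*, the only 1 of the 30 that was lower without overlap, beside 7.23% of all genes tested, at a log2 fold change of -0.24 (raw edgeR p 0.188). *Rasgrf1* and *Rasal1* had counts only in mutant replicate 1, at 7 and 8, and were not tested. The other GTPase activator genes were also 3 above and 2 below 0 of 5 tested. Among them, *Rasal3*, a gene of hematopoietic cells, was at 0.63 and *Rasal2* at -0.19 on the log2 scale (raw edgeR p 0.205 and 0.235), with *Rasal3* at 0.35 without mutant replicate 3 and *Rasal2* at -0.082 after the gene length correction. The 16 adaptor and docking protein genes were 9 above and 7 below 0. *Irs1*, which encodes the docking protein of the insulin receptor, had a log2 fold change of -0.28 (standard error 0.15, raw edgeR p 0.0883), near that of *Gab1*. Of the 4 attenuator genes, *Dok1* was at 0.43 (raw edgeR p 0.253), but at 0.062 without mutant replicate 2, and 2 lay on each side of 0.

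Shares of each gene family were computed per kb. By this measure, *Gab1* made up 72.8 ± 0.495% of the 3 GAB genes in WT and 66.04 ± 6.36% in the mutant mice (SD, n = 3 in each group), without overlap, and *Gab2* most of the rest. The margin of the *Gab1* share was small, and the genotypes overlapped in it with the lengths of the longest transcripts. *Grb2* made up 77.5 ± 5.23% and 70.5 ± 4.09% of its family with *Grap* and *Grap2* (SD, n = 3 in each group), and *Cbl* 66.2 ± 3.59% and 68.1 ± 5.06% of the CBL genes (SD, n = 3 in each group), each with overlap. Among 8 exchange factor genes, *Rasgrp3*, which responds to diacylglycerol, held 34.5 ± 2.59% in WT mice (SD, n = 3), next to 33.9 ± 0.945% for *Sos2* and 12.8 ± 0.523% for *Sos1* (SD, n = 3 in each). The order of *Rasgrp3* and *Sos2* was not resolved, since their difference was smaller than the SD and turned with the length of the longest transcript, to 33.9% for *Rasgrp3* and 35.4% for *Sos2*. The *Sos1* share was 11.4 ± 0.178% in the mutant mice (SD, n = 3), below every WT mouse. Separated the other way was *Rasgrp4*, with 1.12 ± 0.432% in WT and 2.53 ± 1.23% in the mutant mice (SD, n = 3 in each group). Of the other shares, only that of *Gab2* was without overlap, higher in the mutant mice. *Gab1*, *Sos1*, and *Rasgrp4* were also without overlap in CPM, beside 15.5% of all genes tested in either direction. No such rate was computed for shares. Among 10 GTPase activator genes, *Dab2ip* held the highest share, 38.9 ± 0.807% in WT mice (SD, n = 3), ahead of *Rasa1* with 15.4%, *Rasa3* with 14.7%, *Rasal2* with 11.7%, and *Nf1* with 10.7%. These shares compare transcripts per length and say nothing of protein.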

How the data were processed

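LV RNA was extracted with TRIzol and libraries were made with the NEBNext Ultra II RNA kit. The authors trimmed reads with Trim-galore, aligned them to GRCm39 with HISAT2, excluded rRNA, and used StringTie, and they deposited whole-number counts per gene without normalization. How counts were taken from StringTie is not given. Their comparison table (log2 fold changes, log2 CPM, and p-values of edgeR) was used only for gene symbols, deposited beside the identifiers. The other symbols, positions, and lengths came from GENCODE M39 (GRCm39), which held 56236 of the 56923 identifiers.

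In R 4.3.3, genes were filtered with filterByExpr and normalized with TMM in edgeR 4.0.16. The genotypes were compared over all 17212 genes tested by its quasi-likelihood test in the robust form, two-sided, with p-values adjusted after Benjamini-Hochberg and a threshold of 0.05; raw p-values are those before adjustment. Standard errors are the absolute log2 fold change divided by the square root of F, and 95% intervals use the moderated degrees of freedom, so that they pool the spread over genes. Ratios were compared with an exact permutation test. Nothing in the sources gives separate litters or batches, and p-values measure the spread between these mice. The members, gene lists, and tests were chosen with earlier results of these data known. Named are all members, *Lztr1*, and from each of the 4 lists of further regulators the 2 tested genes with the smallest unadjusted p. *Grap2*, *Gab2*, *Rasgrf1*, *Rasal1*, *Rasgrp3*, and *Dab2ip*, with the family shares and the summed ratio, were chosen after their values were seen. Alternatives were other scalings, tests (DESeq2 1.42.0 among them), and filters, leaving out mitochondrially encoded genes, the replicate number as a block, a gene length correction, a threshold of 0.1, and the omission of each mouse. On simulated counts of 16376 genes, the test called 90 of 192 genes changed by 1 on the log2 scale and 10 unchanged genes. Smaller changes, such as those fitted for the members, were not simulated.

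Replicate numbers recur in both genotypes, but equal numbers did not deviate together, so the mice were not treated as pairs.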

Additional observations from a re-analysis of the deposited data

How the results depend on the processing

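The count of members past the adjusted threshold was 0 under every alternative, at a false discovery rate of 0.1 too. At an unadjusted p under 0.05 it was 0 in the main analysis and 1, *Gab1*, without a filter on low counts and without WT replicate 3 and mutant replicate 1 together, an omission chosen after seeing the data, beside 7.11% and 8.5% of all genes tested. With each mouse left out, it ranged from 0 to 1, the 1 being *Gab1* without WT replicate 3 or mutant replicate 3, beside 7.92% and 7.74% of all genes tested. The further regulators at an unadjusted p under 0.05 numbered 1, *Rasgrp4*, with library size only, against 3, while the share over all genes tested was 4% against 8.63%. They numbered 2 to 3 with 1 mouse left out, beside 6.67% to 8.16% of all genes tested. With 1 mouse left out, *Dok2* was among them only without WT replicate 3. Without any 1 of the mutant mice, 2 adaptor genes were among them, and without mutant replicate 3 *Rasgrp4* was not. The further regulators at this value numbered 2 with DESeq2's size factors or the gene length correction, beside 8.72% and 7.85% of all genes tested. Without both mice that stood apart they numbered 4, beside 8.5%. The direction of *Grb2* (-0.050), *Sos2* (0.0027), *Rasa1* (0.086), and *Rasa2* (0.11) changed without mutant replicate 3, that of *Rasa2* (0.16) also without WT replicate 3, and those of *Rasa1* (0.024) and *Rasa2* (0.0013) after the gene length correction. With each mouse left out, the log2 fold changes ranged from -0.050 to 0.29 for *Grb2*, from -0.24 to 0.0027 for *Sos2*, from -0.20 to 0.086 for *Rasa1*, and from -0.35 to 0.16 for *Rasa2*. *Lztr1* was at -0.014 with library size only, a scaling that moved the median over all genes tested to -0.14 and that over the members to -0.33. *Ptpn11*, *Gab1*, *Sos1*, *Nf1*, *Rasa3*, and *Cbl* kept their sign under all 17 alternatives. The log2 difference of the *Sos1* to *Sos2* ratio, -0.067, ranged with each mouse left out from -0.17 to 0.0045, and that of the *Nf1* to *Sos1* ratio, -0.021, from -0.15 to 0.073, and to 0.13 without both mice that stood apart. The causes were not tested. Over all genes, 7 were called, against 21 with library size only, 150 with DESeq2's Wald test, 137 with edgeR's exact test, 20 without a filter, 16 at a false discovery rate of 0.1, 1 with the replicate block, 1 without both mice that stood apart, and 2 to 4 with 1 mouse left out. Deviations of mice with equal numbers correlated at -0.0013, 0.022, and -0.057, and the replicate block gave 0 members past either threshold and a log2 fold change of -0.34 for *Gab1*. The 95% intervals show what 3 mice per genotype limit, with lower bounds down to -0.72 for *Rasa2*.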
